A study of Mus musculus with 6 samples.

Results

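The 53 genes described here are the chemokines and chemokine receptors named by the array, chosen as every probe that is not a control and whose gene symbol begins with Ccl, Cxcl, Ccr or Cxcr followed by a digit, or is Cx3cl1 or Cx3cr1. They comprised 34 ligands and 19 receptors, measured by 70 of the 55681 probes. No measured value entered this rule, although the set was chosen with earlier results of these data known. Livers came from male B6C3F1 mice aged 7 weeks, a hybrid strain with no introduced mutation named in the labels. Control mice were given corn oil by mouth, and TCE mice were given trichloroethylene dissolved in corn oil at 1000 mg/kg b.w. each day, both for 5 days, with 3 mice in each group and 1 array for each mouse. The question was which of these genes were measurable in liver and whether their signal differed between the groups.

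Chemokines are small secreted proteins that direct the movement of leukocytes along concentration gradients. CC ligands mostly attract monocytes, eosinophils, dendritic cells and lymphocytes, while CXC ligands attract neutrophils or, for the interferon-induced ligands of Cxcr3, T cells and NK cells. They act on receptors coupled to inhibitory G proteins, and in liver they are known to be made by hepatocytes, Kupffer cells, stellate cells and endothelium. The samples were whole liver, so fewer cells of a type and less RNA per cell cannot be told apart.

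The signal is the log2 of the background-subtracted intensity after quantile normalization. A probe counted as detected if the scanner software flagged its spots well above background in all 3 mice of one group or of both, and a gene with several detected probes was represented by the brightest. The arrays held between 23537 and 24965 probes well above background, and control mouse 1 lay on a slide of its own while the other 5 arrays shared the other slide. All 6 hepatocyte markers examined were detected.

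The regions upstream of Cxcl1 and Cxcl10 are given first because, of the 14 detected members with a RefSeq upstream window, they are the ones that hold the letters of an NF-kappaB motif, and because both had their highest signal in the same mouse. NF-kappaB is a transcription factor family that drives many inflammatory genes. The sequences are the 250 bases before the RefSeq start site on GRCm38.p6, at chr5:90890995-90891244 on the plus strand for Cxcl1 and at chr5:92348890-92349139 on the minus strand for Cxcl10. Capitals mark matches to GGGANNTNCC, in which N is any base, searched on both strands.
Cxcl1: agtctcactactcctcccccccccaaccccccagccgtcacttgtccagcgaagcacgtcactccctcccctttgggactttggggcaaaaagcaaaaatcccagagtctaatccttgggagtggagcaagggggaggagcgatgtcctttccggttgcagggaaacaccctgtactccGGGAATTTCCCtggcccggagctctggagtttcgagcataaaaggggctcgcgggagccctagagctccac
Cxcl10: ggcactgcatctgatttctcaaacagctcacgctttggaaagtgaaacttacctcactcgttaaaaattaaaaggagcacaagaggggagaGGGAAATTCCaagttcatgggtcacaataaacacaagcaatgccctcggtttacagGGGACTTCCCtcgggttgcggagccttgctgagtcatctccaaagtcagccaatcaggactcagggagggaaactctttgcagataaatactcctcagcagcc
In Cxcl1 overlapping matches on both strands covered bases -71 to -61 from the start site. In Cxcl10 matches lay at bases -159 to -150 and at -103 to -94, the second reading as a match on either strand. Detected members without a window, among them Ccl2 and Ccl5, were not searched. The motif occurred in 7 of the 38 members with a RefSeq window, or 18.4%, and in 3.80% of 27025 genes with one. The other 5 members with it, Ccl1, Ccr3, Ccr6, Cxcl2 and Cxcl3, were not detected. The letters GAAANNGAAA, the core of an interferon-stimulated response element, occurred in the windows of Ccl19, Cxcl10 and Cxcl14, or 7.89% of the members against 3.46% of all genes. A match in letters is a description and not a measured binding site.

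Another sequence concerns the specificity of a probe. The brighter of the 2 detected probes for Cxcl11, a Cxcr3 ligand that RefSeq lists as a transcribed pseudogene, lay at chr5:92788567-92788626 on mm9 and shared between 18 and 31 consecutive bases with 13 probes of other genes or transcripts, 8 on the same strand and 5 on the opposite one. All 13 were well above background on all 6 arrays, and they included probes for Elk1, Med16 and Glrx2. The shared stretch, bases 14 to 43 of the probe, is shown in capitals because all of it was present, on the same strand, on 3 other probes.
Cxcl11 probe stretch: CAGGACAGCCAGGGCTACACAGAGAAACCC
The signal of this probe, from 16.48 to 16.87 across the mice, was therefore not particular to Cxcl11 by sequence. The other detected probe of Cxcl11, at about 10 on the log2 scale, shared 19 bases with a probe for Rn4.5s. Of the 70 member probes, 66 shared no run of 18 bases with a probe of another gene.

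Of the 53 genes, 20 were detected in liver, or 37.7%, against 54.8% of the 24239 genes with a symbol on the array. They comprised 15 of 34 ligands (44.1%) and 5 of 19 receptors (26.3%). The detected CC ligands were Ccl2, Ccl5, Ccl6, Ccl9, Ccl19, Ccl24, Ccl25 and Ccl27a, 8 of 20 genes. The detected CXC ligands were Cxcl1, Cxcl9, Cxcl10, Cxcl11, Cxcl12, Cxcl14 and Cxcl16, 7 of 13 genes. Cxcl11 is counted by probes that share runs of bases with probes of other genes, as given above. Among the receptors described here, Ccr8, Cxcr3, Cxcr6 and Cx3cr1 were detected. No member was measured in all mice of one group and in none of the other.

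**Figure D1:**
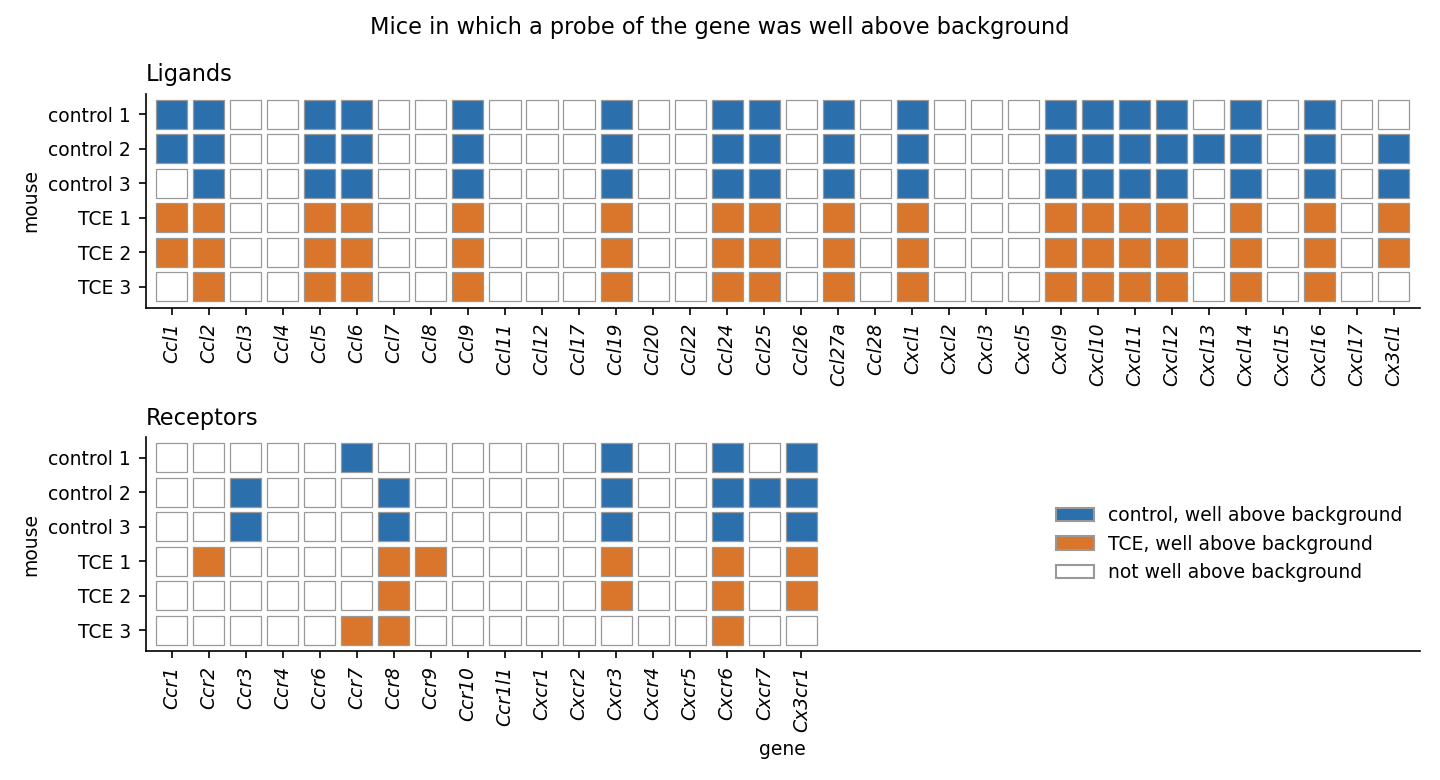
Grid of 34 ligands and 18 receptors (columns) against the 6 mice (rows); a filled square means that the mouse had a probe of that gene well above background, blue for control and orange for TCE. The 15 detected ligands are filled in all 6 mice, while 25 genes are empty in all of them.

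A further 8 genes were well above background on some arrays without meeting this criterion. Cx3cl1, the membrane-bound ligand of Cx3cr1, was measured in control mice 2 and 3 and TCE mice 1 and 2, and Ccl1, a ligand of Ccr8, in control mice 1 and 2 and TCE mice 1 and 2. Ccr3, the eosinophil receptor, was measured in control mice 2 and 3, and Ccr7, the receptor that guides dendritic cells and naive T cells to lymph nodes, in control mouse 1 and TCE mouse 3. Ccr2, the monocyte receptor, and Ccr9, the gut homing receptor, were measured in TCE mouse 1, while Cxcl13, the B cell attractant, and Cxcr7, a scavenging receptor now named Ackr3, were measured in control mouse 2.

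The remaining 25 genes were not well above background on any array. They included the neutrophil attractants Cxcl2, Cxcl3 and Cxcl5 with the neutrophil receptors Cxcr1 and Cxcr2, the macrophage inflammatory proteins Ccl3 and Ccl4, and the monocyte attractants Ccl7, Ccl8 and Ccl12. The eosinophil attractants Ccl11 and Ccl26 were in the same set, as were the T cell attractants Ccl17 and Ccl22, the mucosal ligands Ccl20 and Ccl28, and Cxcl15 and Cxcl17. The receptors in it were Ccr1, Ccr1l1, Ccr4, Ccr6, Ccr10, Cxcr4 and Cxcr5. A level below background has no fold change, and these genes are given by name only.

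Detection of ligands and of their receptors was set side by side for 15 textbook pairs, which name 13 detected ligands. Both partners were detected in 4 pairs, namely Cxcl9, Cxcl10 and Cxcl11 with Cxcr3, and Cxcl16 with Cxcr6. The pair of Cxcl11 rests on its probes that share sequence with probes of other genes. In 9 pairs the ligand was detected without the receptor, among them Cxcl12 with Cxcr4, Cxcl1 with Cxcr2, and Ccl6 and Ccl9 with Ccr1, with receptors that were below that level in all 6 mice. In the other two the receptor was detected and the ligand was not, namely Ccr8 with Ccl1 and Cx3cr1 with Cx3cl1. The ligand genes lay largely in clusters, with 12 on chromosome 11 and 11 on chromosome 5, and 5 were detected on each.

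None of the 20 detected genes passed the threshold of a limma adjusted p of 0.05 or less with a fold change of 2 or more, which 1.73% of the 13284 detected genes of the array passed. None reached an adjusted p of 0.05 or less at any fold change, against 2.39% of all genes. At an unadjusted p under 0.05 limma found 2, Ccl25 and Ccl5, against 19.1% of all genes, and the methods' t-test at its own threshold found 0 against 3.09%. In 4 genes the values of the groups did not overlap, against 27.9% of all genes, and an exact permutation test (two-sided) of 3 against 3 mice gave them p = 0.1, the smallest it can give.

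By direction, 9 genes had a higher mean in TCE mice and 11 a lower one. The median over the members was a log2 fold change of -0.02, and over all detected genes 0.02, with members between -0.71 and 1.20. The 95% interval of the difference, not adjusted for the number of genes, lay inside a 2-fold change either way for 13 of the 20 genes, and for the other 7 the interval held a difference of that size. The number of mice limits this precision.

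**Figure D2:**
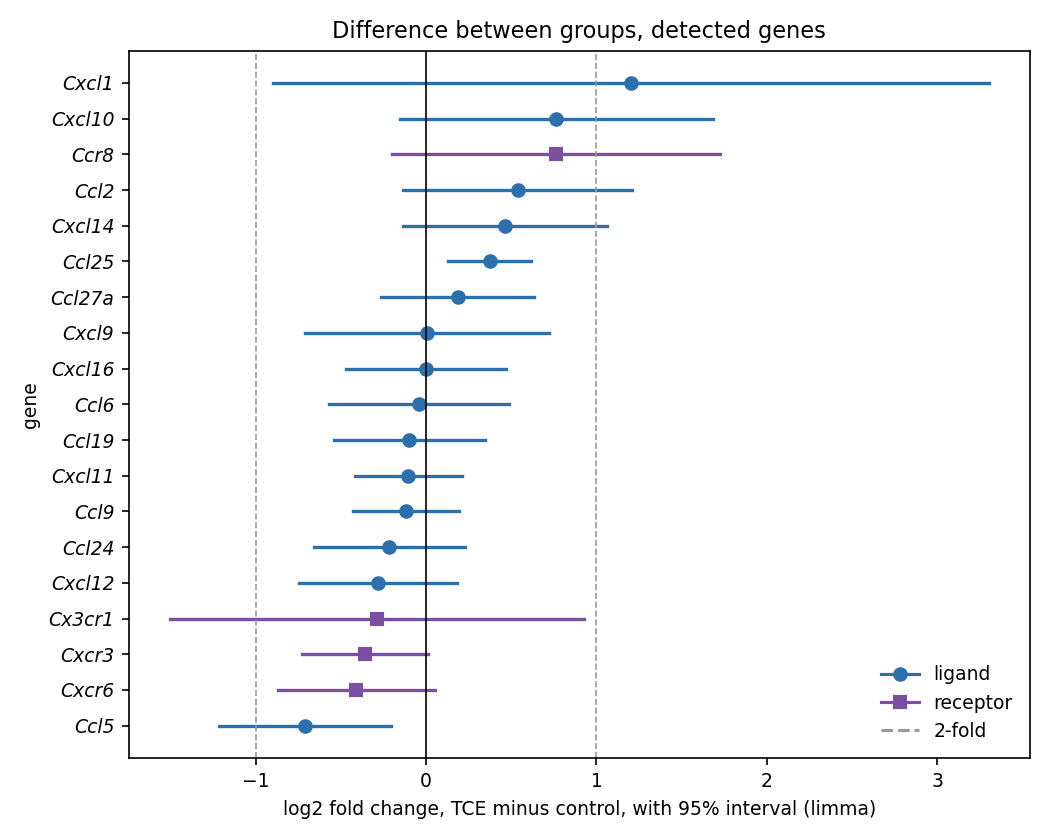
Log2 fold change of TCE over control (x axis) for 19 detected genes (y axis), with the 95% interval from limma on 3 mice a group; circles are ligands, squares receptors and dashed lines mark a 2-fold change. The intervals of Ccl25 and Ccl5 exclude 0, and Cxcl1 has the highest value, 1.20, with an interval from -0.90 to 3.30.

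Among the CC ligands, Ccl5, which attracts T cells, NK cells and monocytes and whose probe lies at chr11:83339296-83339355 on mm9, had log2 signals of 8.49, 8.03 and 7.69 in the control mice and 7.37, 7.40 and 7.30 in the TCE mice. Every TCE mouse lay below every control mouse, and the control mice were spread more widely. This was a log2 fold change of -0.71 (SE 0.21, 95% interval -1.22 to -0.20), 1.64-fold lower, with a limma adjusted p of 0.158. Within the shared slide, without control mouse 1, it was -0.50.

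Ccl25, known as a thymus and gut chemokine that acts on Ccr9 (probe at chr8:4359916-4359975), had signals of 9.63, 9.68 and 9.64 in control mice and 10.06, 9.99 and 10.02 in TCE mice. The groups did not overlap and each kept within a narrow range, with an SD of 0.03 in control and 0.04 in TCE mice (n = 3). Between groups the log2 fold change was 0.37 (SE 0.10, 95% interval 0.13 to 0.62), 1.30-fold higher, with a limma adjusted p of 0.135. Its second detected probe, identical over its 60 bases to a probe without a gene symbol, gave 6.46, 6.07 and 6.44 against 6.71, 7.15 and 6.36, in which the groups overlapped.

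Ccl2, the main monocyte attractant and the ligand of Ccr2, had signals of 5.73, 5.18 and 5.36 in control mice and 6.54, 5.65 and 5.70 in TCE mice. TCE mouse 1 lay above all others, while TCE mice 2 and 3 lay within the control range. Its log2 fold change was 0.54 (SE 0.28, 95% interval -0.13 to 1.21) with a limma adjusted p of 0.376, and it was 0.25 without TCE mouse 1 and 0.24 with normexp background correction.

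The other CC ligands had values that overlapped between groups. Ccl9, a myeloid attractant acting on Ccr1, had signals of 13.24, 13.41 and 13.25 in control mice and 13.15, 13.04 and 13.35 in TCE mice. Ccl6, a related ligand of Ccr1, had 9.55, 9.76 and 9.44 against 9.17, 9.50 and 9.96. This was a log2 fold change of -0.12 for Ccl9 and -0.04 for Ccl6, and neither 95% interval reached a 2-fold change. Ccl27a, a skin homing chemokine, had 10.19, 9.90 and 10.14 against 10.42, 10.45 and 9.90, a log2 fold change of 0.18 that lay between 0.088 and 0.36 with any 1 mouse left out. TCE mice 1 and 2 lay above the controls and TCE mouse 3 at their lower end.

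Ccl24, an eosinophil attractant, had signals of 8.14, 8.26 and 8.16 in control mice and 7.61, 8.04 and 8.27 in TCE mice, for a log2 fold change of -0.22 (95% interval -0.66 to 0.23). TCE mouse 1 was the lowest and TCE mouse 3 the highest of all 6, and with any 1 mouse left out the log2 fold change lay between -0.36, without TCE mouse 3, and -0.035, without TCE mouse 1. Ccl19, a ligand of Ccr7, had 7.01, 7.34 and 7.29 against 7.45, 6.92 and 6.98, a log2 fold change of -0.10, with TCE mice at both ends of the range. This probe of Ccl19 is annotated at chr4:42248630-42248689 on the plus strand of mm9. The RefSeq window of Ccl19 lies on the minus strand of GRCm38.p6, and whether the probe reads that locus was not tested.

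Of the CXC ligands, Cxcl1, a neutrophil attractant and acute-phase gene of liver (probe at chr5:91321845-91321904), was the only member with a mean difference over 2-fold. Its signals were 8.97, 10.81 and 9.44 in control mice and 12.84, 10.10 and 9.89 in TCE mice. The value of 12.84 in TCE mouse 1 stood apart from the other 5 mice, and TCE mice 2 and 3 lay within the control range. Between groups the log2 fold change was 1.20 (SE 0.87, 95% interval -0.90 to 3.30) with a limma adjusted p of 0.523. It was 0.25 without TCE mouse 1 and lay between 0.25 and 1.73 with any 1 mouse left out.

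Cxcl10, an interferon-induced ligand of Cxcr3 (probe at chr5:92775781-92775840), had signals of 8.27, 8.20 and 8.07 in control mice and 9.85, 8.32 and 8.66 in TCE mice. Every TCE mouse lay above every control mouse, with TCE mouse 1 again the highest. Its log2 fold change was 0.76 (SE 0.38, 95% interval -0.16 to 1.69) with a limma adjusted p of 0.357, and 0.31 without TCE mouse 1. Cxcl9, the other interferon-induced ligand whose probes shared no run of 18 bases with those of other genes, had 9.34, 8.87 and 8.53 against 8.69, 8.62 and 9.45, a log2 fold change of 0.01 with its highest value in TCE mouse 3.

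Cxcl12, the homeostatic ligand of Cxcr4, had signals of 14.97, 14.78 and 14.56 in control mice and 14.63, 14.69 and 14.14 in TCE mice, for a log2 fold change of -0.28 (SE 0.19). The groups overlapped, and its second detected probe gave -0.20. The log2 fold change lay between -0.39 and -0.11 with any 1 mouse left out and was -0.028 with no normalization between arrays. Cxcl14, a chemokine of epithelia, had 7.42, 8.00 and 7.39 against 8.27, 7.65 and 8.28, so that TCE mice 1 and 3 lay above the controls and TCE mouse 2 among them. Its log2 fold change was 0.46 (SE 0.25) with a limma adjusted p of 0.391. Cxcl16, the ligand of Cxcr6 that also exists as a membrane-bound scavenger receptor, had 7.97, 7.68 and 8.12 against 7.61, 8.19 and 7.96, a log2 fold change of -0.00167 with a 95% interval from -0.47 to 0.47.

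Cxcl11 differed in sign between its detected probes, with log2 fold changes of -0.10 for the brighter probe and 0.20 for the other. The brighter one had signals of 16.70, 16.63 and 16.87 in control mice and 16.48, 16.74 and 16.67 in TCE mice. Ccl19 had values of -0.10, 0.20 and 0.45 by its 3 detected probes, Cx3cr1 -0.29 and 0.09, and Cxcl9 0.01 and -0.04, none of them past the threshold. No other member with several detected probes differed in sign.

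**Figure D3:**
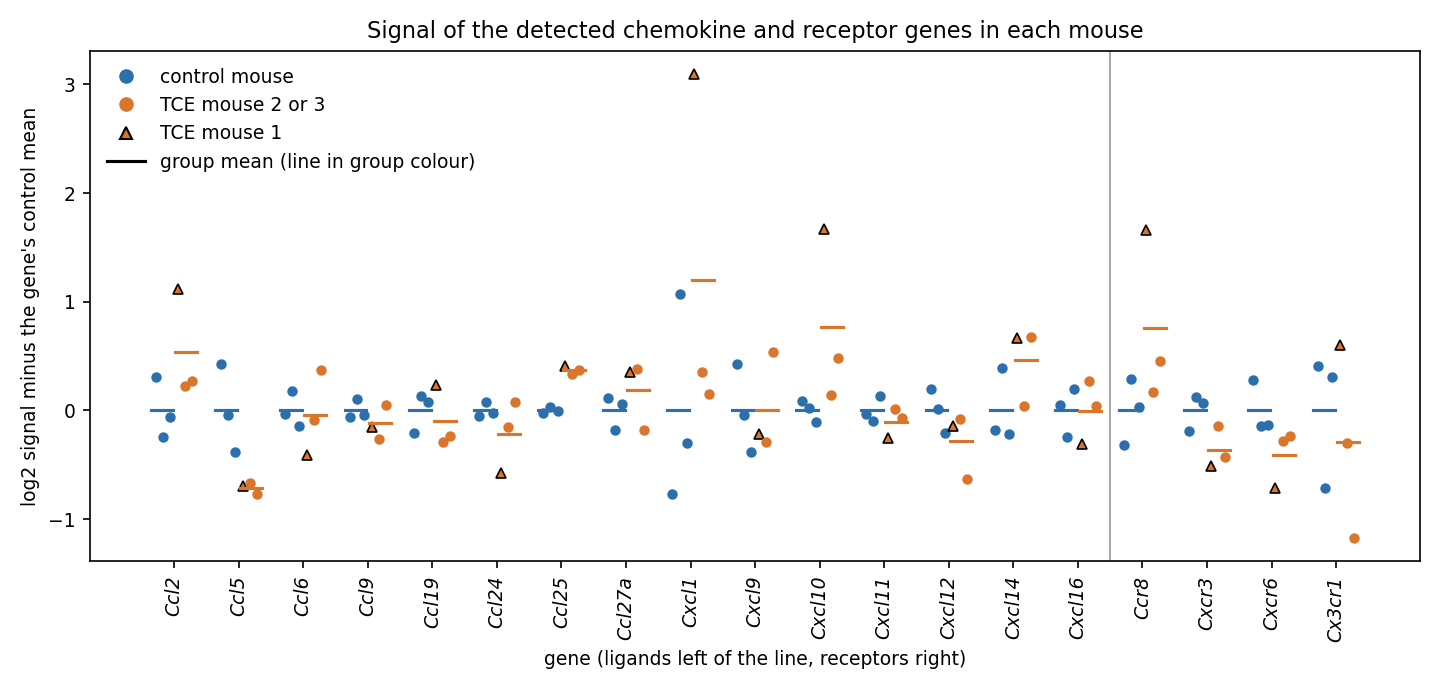
Log2 signal of 19 detected genes (x axis) in each mouse, relative to the mean of the 3 control mice (y axis); blue points are control mice, orange points TCE mice, triangles TCE mouse 1, and short lines the group means. The TCE points of Ccl5 and Cxcr6 lie below and those of Ccl25 and Cxcl10 above all control points. TCE mouse 1 lies highest for Cxcl1, Cxcl10, Ccr8 and Ccl2.

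Of the receptors, Cxcr6, carried by NKT and T cells of the liver, had signals of 7.00, 6.58 and 6.58 in control mice and 6.01, 6.44 and 6.49 in TCE mice. The groups did not overlap, although TCE mice 2 and 3 lay close to the lower controls. This was a log2 fold change of -0.41 (SE 0.19, 95% interval -0.87 to 0.05) with a limma adjusted p of 0.328, and it lay between -0.50 and -0.26 with any 1 mouse left out. Its second detected probe, which shares 50 bases with the first and was well above background in 1 of 3 TCE mice, gave -0.37.

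Cxcr3, the receptor of activated T and NK cells for Cxcl9 and Cxcl10, had signals of 5.28, 5.59 and 5.54 in control mice and 4.96, 5.33 and 5.04 in TCE mice. It was well above background in 2 of 3 TCE mice, and the groups overlapped. Between groups the log2 fold change was -0.36 (SE 0.15, 95% interval -0.73 to 0.01) with a limma adjusted p of 0.289, and it was -0.10 with normexp background correction.

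Ccr8, a receptor of Ccl1 found on type 2 helper and regulatory T cells, had signals of 5.00, 5.61 and 5.35 in control mice and 6.99, 5.49 and 5.77 in TCE mice. TCE mouse 1 was highest and TCE mouse 2 lay among the controls, of which 2 of 3 were well above background. Its log2 fold change was 0.76 (SE 0.40, 95% interval -0.20 to 1.72) with a limma adjusted p of 0.382. It was 0.31 without TCE mouse 1 and 0.25 with normexp background correction. These values rest on a single probe, since the other probe of Ccr8 was well above background in 0 of 3 control and 0 of 3 TCE mice. Cx3cr1, a receptor of monocytes and resident macrophages, had 6.40, 5.28 and 6.30 against 6.60, 5.69 and 4.82, a log2 fold change of -0.29 with a 95% interval from -1.504 to 0.92, and was well above background in 2 of 3 TCE mice.

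TCE mouse 1 had the highest signal of the 6 mice for 7 of the 20 members, or 35%, against 16.8% of all detected genes. These were the ligands Ccl2, Ccl19, Ccl25, Cxcl1 and Cxcl10 and the receptors Ccr8 and Cx3cr1. It also had the lowest signal for 6 members, or 30%, against 17.5% of all genes, namely Ccl6, Ccl24, Cxcl11, Cxcl16, Cxcr3 and Cxcr6. TCE mouse 2, which was highest for 27.1% of all genes, was highest for 2 members. Without TCE mouse 1 the log2 fold changes of Cxcl1, Cxcl10, Ccr8 and Ccl2 were the smaller values given above, while those of Ccl5 and Ccl25 were -0.71 and 0.36.

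The genes around the chemokines were examined by lists. Of 27 NF-kappaB factors and targets, 23 were detected, 16 with a higher and 7 with a lower mean in TCE mice, and 0 passed the threshold, against 1.73% of all genes. Unadjusted, 7 had a limma p under 0.05, 5 higher and 2 lower, against 19.1% of all genes, and the median log2 fold change of the list was 0.27 against 0.02 over all genes. In mean signal the list reached 11.2 in TCE mouse 1 and lay between 10.1 and 10.5 in the other mice. Lcn2, an iron-binding acute-phase protein, had signals of 8.55, 8.88 and 8.30 in control mice and 13.42, 10.40 and 12.40 in TCE mice, for a log2 fold change of 3.50 with a limma adjusted p of 0.0752. Nfkbiz, an NF-kappaB cofactor, stood well above background in 0 of 3 control mice and had signals of 7.22, 5.98 and 5.45 in TCE mice, so no fold is given. Saa2, a serum amyloid, also had its highest value in TCE mouse 1, at 17.34, with overlapping groups and a log2 fold change of 1.72. Vcam1, an adhesion molecule for leukocytes, had a log2 fold change of 0.44, while Nfkbie, an inhibitor of NF-kappaB, and Ikbkb, a kinase that activates the pathway, had -0.39 and -0.33. The groups did not overlap in these 3 genes, and their limma adjusted p lay between 0.162 and 0.229. Over the list, the groups did not overlap in 11 of the 23 detected genes, against 27.9% of all genes. The part of these genes in the values of Cxcl1, Cxcl10 and Ccl2 was not tested.

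Among 29 upstream cytokines and their receptors, 16 were detected and 0 passed the threshold, against 1.73% of all genes, with 4, 3 higher and 1 lower, at an unadjusted limma p under 0.05, against 19.1%. Tnf, Il6, Ifng and Il17a, known inducers of chemokines, were not detected. Il1b, another inducer, had signals of 6.92, 6.63 and 5.41 in control mice and 4.51, 4.69 and 5.40 in TCE mice, of which 1 of 3 was well above background. Its fitted log2 fold change was -1.45 with a limma adjusted p of 0.162. Myd88, the adaptor of interleukin-1 and Toll-like receptors, had a log2 fold change of 0.44 and Tnfrsf1b, a TNF receptor, 0.61.

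Receptor signalling was the list with members past the threshold in each direction. Of 22 detected out of 30, 1 was higher and 1 lower, against 1.73% of all genes. Unadjusted, 4 had a limma p under 0.05, 3 higher and 1 lower, against 19.1% of all genes. Rgs16, which speeds the shutdown of G protein signals, rose from 11.44, 10.29 and 9.78 in control mice to 13.07, 13.34 and 13.37 in TCE mice, for a log2 fold change of 2.75 with a limma adjusted p of 0.0313. Ptk2b, a kinase downstream of chemokine receptors, fell from 11.76, 11.58 and 12.002 to 10.05, 9.92 and 10.10, a log2 fold change of -1.76 with a limma adjusted p of 0.00508. Both genes also serve receptors other than those of chemokines. Adrbk2, a receptor kinase, had a log2 fold change of 0.49 and Stat3 of 0.40, neither past the threshold.

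Of 20 chemokines, atypical receptors and related genes under other symbols, 13 were on the array, 8 were detected and 0 passed the threshold, against 1.73% of all genes, with 3, all lower, at an unadjusted limma p under 0.05, against 19.1%. Gm1987, which is closely related to the Ccl21 genes so that near-identical copies may share its probe, had 9.57, 9.38 and 9.03 in control mice and 8.37, 8.29 and 8.98 in TCE mice, for a log2 fold change of -0.78 with a limma adjusted p of 0.163. Gm13304, a brighter member of the same list, had 11.26, 11.86 and 11.73 against 11.17, 11.39 and 11.56. Its groups overlapped, with a log2 fold change of -0.24 and a limma adjusted p of 0.568. Ccrl2, a receptor that binds chemerin, and Rarres2, chemerin itself, had log2 fold changes of -0.46 and -0.29. In both the groups did not overlap, as in 27.9% of all genes, and Ccrl2 was well above background in 1 of 3 TCE mice. Of 20 genes of glycosaminoglycan presentation and chemokine proteolysis, 16 were detected, 5 with a higher and 11 with a lower mean. Again 0 passed the threshold, against 1.73% of all genes. Hs2st1, a heparan sulfate sulfotransferase, had a log2 fold change of -1.05 with a limma adjusted p of 0.104, and Gpc1, a heparan sulfate proteoglycan, -0.57 with 0.0593.

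**Figure D4:**
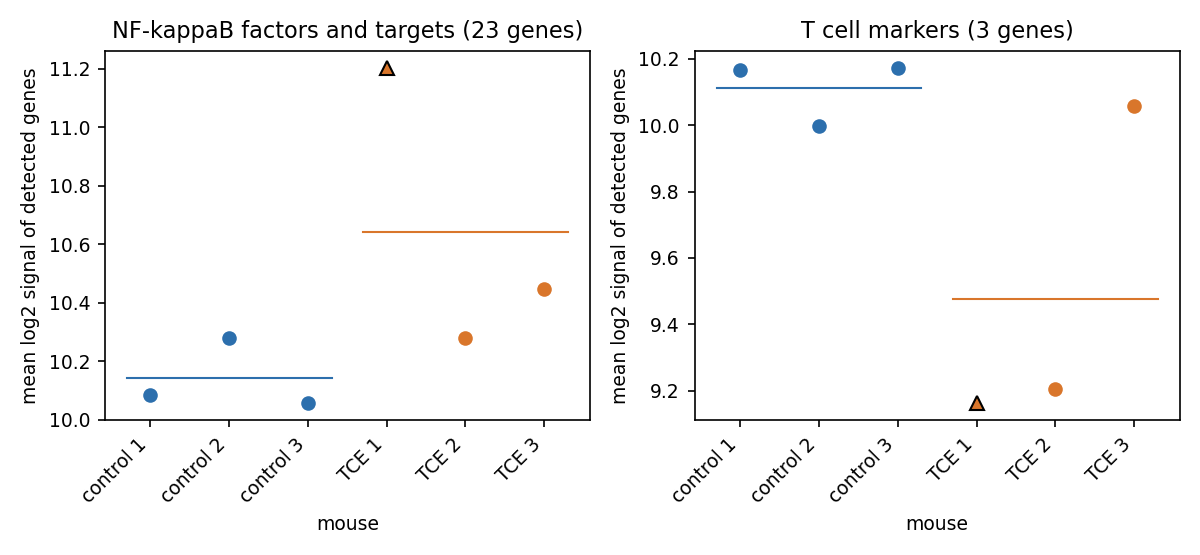
Mean log2 signal (y axis) of the detected genes of 2 lists in each mouse (x axis), the 23 detected NF-kappaB factors and targets on the left and the 3 detected T cell markers on the right; lines are group means and the triangle is TCE mouse 1. TCE mouse 1 lies highest on the left at 11.2 and lowest on the right at 9.16, and TCE mouse 3 lies within the control range on the right.

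Markers of the cells that carry or make chemokines were examined beside these values. Of 8 T cell markers, 3 were detected and 5, Cd3d, Cd3g, Cd2, Cd8a and Cd8b1, were not. The mean signal of the 3 was 10.16, 9.999 and 10.17 in control mice and 9.16, 9.21 and 10.06 in TCE mice. Cd3e, part of the T cell receptor complex, had a log2 fold change of -0.63 with a limma adjusted p of 0.275. That of Lck was -0.34. Cd4 had 13.81, 14.09 and 14.14 in control mice and 13.25, 12.20 and 13.78 in TCE mice. This was a log2 fold change of -0.93 with a limma adjusted p of 0.279. Only for Cd4 did the groups not overlap, as in 27.9% of all genes. Its control mean of 14.01 was near the 14.24 of the hepatocyte marker Cps1. Cd4 enters the mean signal of the 3 markers, so the 9.21 of TCE mouse 2 includes its 12.20. The T cell marker values stand beside the lower means of Ccl5, Cxcr3 and Cxcr6, and their part in those differences was not tested. The 3 detected of 6 NK cell markers ranged from 7.44 to 7.87 in mean signal in control mice and from 7.71 to 7.80 in TCE mice, and Ncr1, Klrb1c and Eomes were not detected.

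All 12 Kupffer cell and macrophage markers were detected, 2 with a higher and 10 with a lower mean in TCE mice. Of all detected genes, 53.1% had a higher mean. The median log2 fold change of the list was -0.10, against 0.02 over all genes, and 0 passed the threshold, against 1.73% of all genes. The mean signal of the list ranged from 10.4 to 10.6 in control mice and from 10.2 to 10.5 in TCE mice. Of 8 neutrophil markers 5 were detected, 4 with a higher and 1 with a lower mean, and 0 passed the threshold, against the same 1.73%. Their mean signal was 7.68 to 8.11 in control mice and 8.14 to 8.41 in TCE mice. S100a8, a calcium-binding protein of neutrophils, had 5.57, 6.24 and 5.96 against 6.75, 7.04 and 7.55, a log2 fold change of 1.19 with a limma adjusted p of 0.0886. Ngp, Mpo and Retnlg were not detected, and Ly6g, a defining surface marker, had a log2 fold change of -0.02. The part of these cells in the chemokine values was not tested.

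The other marker lists held 1 gene past the threshold. In plasma cells, Derl3, a protein of the endoplasmic reticulum that other secretory cells also use, fell from 9.50, 9.58 and 9.58 to 7.54, 7.50 and 6.18, a log2 fold change of -2.48 with a limma adjusted p of 0.0315. Igj, the joining chain of secreted antibodies and the other detected plasma cell marker, had a log2 fold change of 0.29 with a limma adjusted p of 0.579. No detected marker of monocytes (3 genes), B cells (2), leukocytes in general (4), sinusoidal endothelium (6), stellate cells (5), bile duct (2), hepatocytes (6) or platelets (1) passed it. Of the stellate cell markers, 1 had a higher and 4 a lower mean in TCE mice. Among them Lrat had 8.08, 8.56 and 7.85 in control mice and 7.01, 6.35 and 7.08 in TCE mice. Its log2 fold change was -1.35 with a limma adjusted p of 0.0676, and its groups did not overlap, as in 27.9% of all genes. Over all lists, 1 gene past the threshold rose and 2 fell of 138 detected, against 1.73% of all detected genes. The chemokine and receptor genes themselves gave 0 of 20, against the same share.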

How the data were processed

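Liver RNA of 3 control and 3 TCE mice was hybridised with Cy3 label to 1-colour Agilent arrays, 1 array for each mouse. The authors extracted the spots with Agilent Feature Extraction 10.7.1.1, per the file headers, and deposited for each spot a processed intensity (background subtracted), a mean intensity, the intensity of the local background, and quality flags. A second deposited table gives group means of log2 values after quantile normalization and holds no value for single mice. These means were within 0.01 of those computed here for 99.99% of probes. Positions of probes are on mm9, as annotated in that table.

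Outlier spots, 123 to 189 on each array, were set to missing, and 2 of them belonged to member probes. After log2 transformation of the processed intensity without a pseudocount, replicate spots were averaged for each probe and quantile normalization was run across 55681 probes. Detected probes, 22731 in all, were tested with limma 3.58.1 (lmFit and eBayes, two-sided) in R 4.3.3 with Benjamini-Hochberg adjustment over all of them, and a call needed a fold of 2 or more besides an adjusted p of at most 0.05. The methods' t-test used p of 0.05 or less, unadjusted, with a fold of 2 or more. The R packages statmod, version 1.5.0, and data.table, version 1.17.8, were used, and the fit was tested on simulated data. RefSeq names and start sites (GRCm38.p6) matched 53 of 53 genes by Entrez identifier, and 38 had an upstream window.

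Member genes, lists, ligand and receptor pairs and tests were chosen with earlier results of these data known. The values of 1 member are not reported here, although it is in the counts. Every other detected member could be named; the rule asked for values of each mouse for the 12 members with the lowest p and the 6 with the highest mean signal, and those of the other detected members were added, and from each other list up to 6 genes past the threshold or with the lowest p. The labels give each array as a numbered replicate of its group, taken here as a separate animal. Mouse numbers follow the source label; the titles and the names of the deposited files agree on the groups but number the arrays otherwise, by the same shift in both groups. Same-numbered mice had correlations of deviations of 0.09, 0.01 and -0.09, so the numbers were not used to pair them. Alternatives were other normalizations, background correction (normexp, offset 50), filters, outlier spots kept, blocks for slide and replicate number, a variance trend, array weights, other probe rules, and each mouse left out.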

Additional observations from a re-analysis of the deposited data

How the results depend on the processing

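The count of members past the threshold was 0 under every alternative run, and the count at an adjusted p of 0.05 or less was 0 except at an unadjusted p under 0.05, chosen after seeing the data, where it was 2. Groups did not overlap for 4 members, and limma gave 2 at an unadjusted p under 0.05. Between 17 and 28 members were detected under the other filters, and between 20 and 22 without 1 mouse. Without 1 mouse the counts past the threshold and at the adjusted p stayed at 0.

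The median log2 fold change of the detected members, -0.02, was 0.22 with no normalization between arrays, where that of all detected genes was 0.27, and 0.049 with each detected probe on its own. With Cxcl11 represented by its other detected probe it was 0.0028, and with Cxcl11 left out -0.0017, both chosen after seeing the data. Without 1 mouse the median lay between -0.061 and 0.11, the latter without TCE mouse 1. With the replicate block the number of members past the threshold was 0, the median was -0.02, and 45 of all detected genes passed against 230 without the block; the lowest adjusted p of the 20 members was then 0.231, that of Ccl5. In 19 members, 298 of 320 values kept the direction of the main result and 22, in 8 genes, did not; no gene passed the threshold in any of them.

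The log2 fold changes that turned their sign were these. With the 75th percentile Ccl6 gave 0.019. With no normalization Ccl9 gave 0.13, Ccl24 0.00216, Ccl6 0.23, Cxcl16 0.21, Ccl19 0.11 and Cxcl11 0.067. Cxcl16 gave 0.019 with normexp and 0.021 with slide as a block. With array weights Cxcl9 gave -0.069, Cx3cr1 0.34 and Ccl19 0.022. Without 1 mouse Ccl6 lay between -0.25 and 0.14, Cxcl16 between -0.14 and 0.15, Cxcl9 between -0.26 and 0.22, Ccl19 between -0.26 and 8.21e-05 and Cx3cr1 between -0.73 and 0.15. The cause was not tested. The array gives no read depth, and signals close to background, such as those of Ccr8, Cxcr3 and Ccl2, moved with the background correction: with normexp their log2 fold changes were 0.25, -0.10 and 0.24.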
